A study of Lytechinus variegatus with 18 samples.

Results

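Development of control embryos of the sea urchin Lytechinus variegatus was followed here by setting 3 control libraries collected at 21 hours post fertilization (hpf) against 3 control libraries collected at 15 hpf. These are 6 of the 18 libraries of a study of embryos given ethanol at fertilization, and they were chosen by treatment and time in the deposited sample sheet and paired by replicate letter, A to C. All embryos were labelled WT, and each library came from total RNA of about 150 whole embryos. The fits also used control embryos at 18 hpf and ethanol-treated embryos at 15, 18 and 21 hpf, with 3 libraries each. The labels give neither the ethanol dose nor a morphological stage. They call the replicates biological and do not say whether these came from separate parents, so p-values measure the spread between these libraries, which may be in part technical.

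In the hours after the sea urchin embryo hatches, skeletogenic mesenchyme cells enter the blastocoel and build the larval skeleton, and the vegetal plate folds inward to form the gut. Cells at the tip of the growing gut give rise to pigment cells, blastocoelar cells, coelomic pouches and the muscle around the foregut, while neurons arise at the apical plate and along the ciliary band. Gene regulatory networks of these lineages are known from Strongylocentrotus purpuratus, the purple sea urchin, and the gene names below are those of the best hits in that species, as the Sp- prefix shows.

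The 6 libraries held 7368353 to 7830923 counts over 27230 gene models, and 18674 models passed the filter on low counts, 15062 of them with a name. Levels are in CPM, counts scaled to a common library size, without correction for gene length, so levels are compared between libraries and not between genes. In whole embryos, a change in the number of cells of a type and a change in RNA per cell cannot be told apart. Sp-Pks1 of pigment cells, Sp-Endo16 of the gut, Sp-Msp130 of skeletogenic cells and Sp-SoxC of neuronal precursors had counts in all 6 libraries, and Sp-Bindin_1, a sperm protein gene with 2 gene models, was at 0 in 4 libraries and at most at 1.16 CPM in the others. Vitellogenin, looked at as a marker of adult gut and gonad, had counts in all 6 libraries. In replicates A, B and C, Sp-Vtgn2 (L_var_18948) had 1207, 869.5 and 686 CPM at 21 hpf, against 555, 289 and 198 CPM at 15 hpf. The Sp-Vtgn1 model L_var_19278 went the other way, with 27.2, 16.2 and 16.5 CPM at 21 hpf, against 31.5, 27.8 and 32.6 CPM at 15 hpf. The source of this RNA was not tested. The library labelled control 21 hpf replicate C stood apart. A score made of 500 genes that separated ethanol from control libraries at 15 and 18 hpf was higher in ethanol than in control libraries at 21 hpf by 0.817 in replicate A and 0.758 in replicate B, but by -0.902 in replicate C. On that score the control 21 hpf library of replicate C lay 0.887 above the mean of the other 2 control 21 hpf libraries, in the direction of ethanol. Whether the labels of that pair were exchanged was not tested, the labels were kept, and results are also given for replicates A and B alone. Values per library follow in the order A, B and C.

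At an adjusted p under 0.05 (edgeR quasi-likelihood test with Benjamini-Hochberg adjustment and replicate letter as a block), 2475 gene models differed between 21 and 15 hpf, 13.3% of those tested. Of these, 1372 (7.35%) were higher at 21 hpf and 1103 (5.91%) were lower. With replicates A and B alone, 2153 models passed (11.6%), 1284 higher (6.91%) and 869 lower (4.67%). The 2 sets shared 1486 models, 60% of the first and 69.0% of the second, and none of the 2475 had the opposite sign with A and B alone. The rises were larger than the falls. The median log2 fold change was 1.45 among the higher models, of which 188 changed at least 8-fold, and -0.87 among the lower models, of which 6 did. Fewer models passed when another replicate was left out, 708 without replicate A and 394 without replicate B, and without the block on replicate letter 725 passed (3.88%), 446 higher (2.39%) and 279 lower (1.49%).

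Replicate C gave a check of the calls made with A and B alone, because that fit used none of its libraries. Of 1272 models called higher with A and B that were also in the full test, 1058 (83.2%) were also higher in pair C, against 53.7% of all tested models. Their median log2 difference was 0.88 in pair C, against 1.70 in pair A and 1.41 in pair B. Of 866 models called lower, 677 (78.2%) were also lower in pair C, against 46.1% of all tested models. Their median was -0.53 in pair C, -1.26 in pair A and -1.06 in pair B. Both sets of models were chosen for their differences in pairs A and B, which enlarges their medians there. How far the smaller medians in pair C come from this choice was not tested. The ethanol pair C was not used by that fit either. There 93.3% of the same higher models were also higher, against 47.2% of all tested models, and 91.7% of the lower models were also lower, against 52.6%, with medians of 1.62 and -0.99. In ethanol pairs A and B, whose libraries were in that fit, the higher models had medians of 0.95 and 1.09. The lower models had medians of -0.66 and -0.82 there. Across all tested models, the paired log2 differences correlated at 0.486 between pairs A and B, 0.445 between B and C, and 0.195 between A and C. These are correlations across genes, which are not independent.

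**Figure D1:**
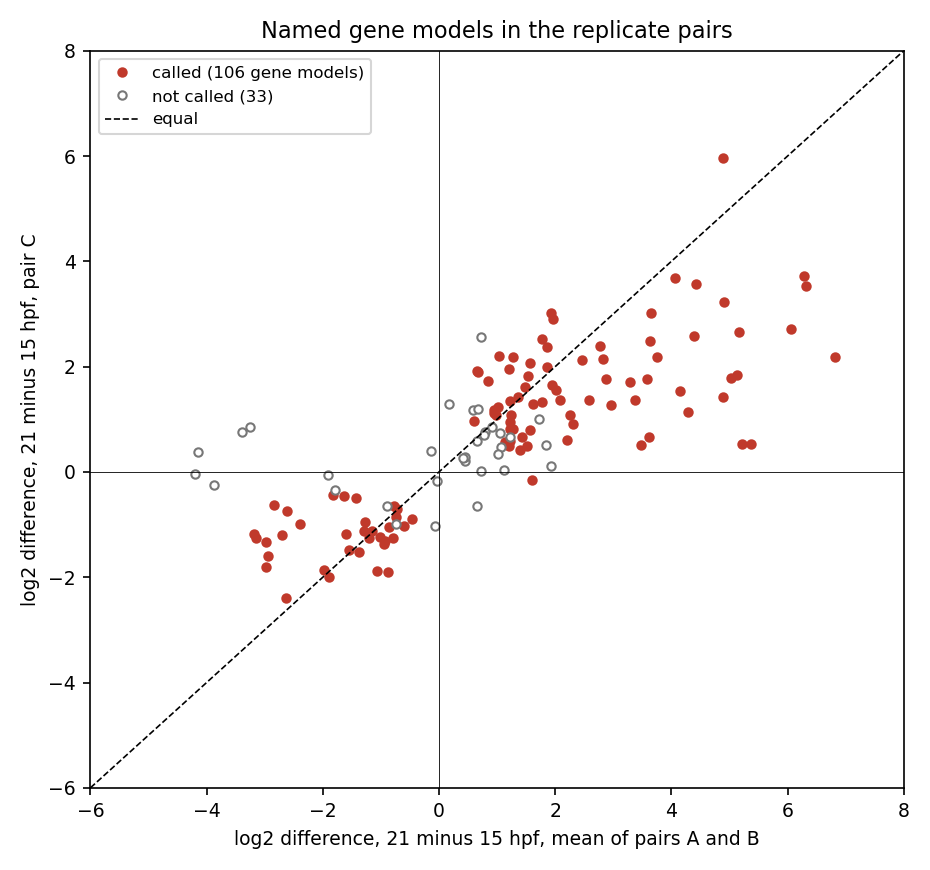
Each point is one of the 139 gene models named by rule, placed by its log2 difference in CPM between 21 and 15 hpf, with the mean of pairs A and B on the x axis and pair C on the y axis. Filled points were called in the fit of all replicates (106 models), open points were not (33), and the dashed line marks equal differences. Of the 72 models called higher, 50 lie below the line, with a smaller difference in pair C than in the mean of A and B. Of the 34 called lower, 21 had a difference smaller in size in pair C. Some of the models were chosen for large changes in A and B alone, which favours smaller differences in pair C.

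The gene models with the largest rises included enzymes, a collagen, a fatty acid binding protein and muscle actin. Sp-Ldha, a lactate dehydrogenase that interconverts pyruvate and lactate (L_var_27187, chromosome 19, 22637242 to 22644658), had 51.5, 155 and 8.76 CPM at 21 hpf, against 0.771, 1.02 and 0.423 CPM at 15 hpf. The lowest of the 21 hpf libraries was above the highest at 15 hpf, and the log2 fold change was 6.40 ± 1.07 (SE, adjusted p 0.00138 by edgeR, with 6.81 and p 1.93e-05 from A and B alone). Its name is carried by 3 gene models, between which reads may be divided. Sp-Cuzd1L_1, named for its CUB and zona pellucida domains (L_var_10520, chromosome 5, 18024369 to 18032743), had 486, 679 and 33.8 CPM at 21 hpf, against 2.06, 22.3 and 2.68 CPM at 15 hpf. Sp-FbsL_2, a homologue of the extracellular protein fibrosurfin (L_var_04883, chromosome 2, 65188547 to 65192060), had 236, 306 and 11.6 CPM at 21 hpf, against 1.54, 8.69 and 1.55 CPM at 15 hpf. In both genes replicate C was far below A and B at 21 hpf, and the groups still did not overlap. Their log2 fold changes were 5.96 ± 1.09 (SE, adjusted p 0.00258 by edgeR, with 6.35 and p 0.000112 from A and B alone) for Sp-Cuzd1L_1 and 5.63 ± 1.24 (SE, adjusted p 0.00737 by edgeR, with 5.97 and p 9.47e-05 from A and B alone) for Sp-FbsL_2.

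A pair of neighbouring genes named after lactase, a disaccharidase of the mammalian intestine, rose together. Sp-Lct_11 (L_var_13879, chromosome 7, 30235030 to 30239431) had 35.3, 44.0 and 16 CPM at 21 hpf, against 0.514, 2.04 and 0 CPM at 15 hpf. Sp-Lct_3 (L_var_13878, chromosome 7, 30214585 to 30230043) had 228, 275 and 56.3 CPM at 21 hpf, against 6.94, 18.7 and 4.51 CPM at 15 hpf. The log2 fold changes were 5.36 ± 0.70 (SE, adjusted p 0.000334 by edgeR, with 5.10 and p 3.68e-05 from A and B alone) and 4.34 ± 0.71 (SE, adjusted p 0.00119 by edgeR, with 4.47 and p 9.15e-05 from A and B alone). Sp-Fabp2L2, a homologue of intestinal fatty acid binding proteins (L_var_13541, chromosome 7, 19084848 to 19087541), had 703, 1283 and 61.6 CPM at 21 hpf, against 11.8, 82.8 and 6.34 CPM at 15 hpf. The 15 hpf library of replicate B was above the 21 hpf library of replicate C in this gene, so that the groups overlapped, and its log2 fold change was 4.65 ± 0.96 (SE, adjusted p 0.00498 by edgeR, with 4.87 and p 0.000303 from A and B alone). Sp-A2col, a collagen gene (L_var_06446, chromosome 3, 27972565 to 27990425), had 28.0, 56.3 and 17.6 CPM at 21 hpf, against 1.67, 2.73 and 1.13 CPM at 15 hpf. The 3 pairs were alike in this gene, with log2 differences of 3.87 in pair A, 4.24 in B and 3.69 in C, and its log2 fold change was 4.18 ± 0.48 (SE, adjusted p 0.000157 by edgeR, with 4.23 and p 0.000128 from A and B alone).

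Other members of this set had lower values in replicate C. Sp-Rej9, of the receptor for egg jelly family of membrane proteins (L_var_13796, chromosome 7, 28191471 to 28223320), had 155, 161 and 16.5 CPM at 21 hpf, against 3.73, 4.6 and 2.4 CPM at 15 hpf. The change in Sp-Rej9 was 5.02 ± 0.90 (SE, adjusted p 0.00216 by edgeR, with 5.26 and p 1.68e-06 from A and B alone) on the log2 scale. Sp-Plscrl, a phospholipid scramblase homologue (L_var_22080, chromosome 14, 14533680 to 14548066), had 64.8, 60.8 and 2.72 CPM at 21 hpf, against 1.54, 1.53 and 0.564 CPM at 15 hpf. The change in Sp-Plscrl was 4.96 ± 1.14 (SE, adjusted p 0.00982 by edgeR, with 5.35 and p 0.000112 from A and B alone) on the log2 scale. Sp-CfhL-1, named after complement factor H, a regulator of the complement cascade, had 82.6, 74.4 and 13.9 CPM at 21 hpf, against 2.06, 5.79 and 2.11 CPM at 15 hpf. The change in Sp-CfhL-1 was 4.16 ± 0.74 (SE, adjusted p 0.00215 by edgeR, with 4.47 and p 5.35e-05 from A and B alone) on the log2 scale. In each of them the 21 hpf library of replicate C was the lowest of the 3 and was above all 15 hpf libraries. Over all models called higher, the replicate C library was the lowest of the 3 at 21 hpf in 836 (60.9%), against 39.3% of all tested models. Among the models called lower it was the highest of the 3 at 21 hpf in 404 (36.6%), against 41.4% of all tested models, and their median log2 difference was -0.95 in pair C, -0.79 in pair A and -0.85 in pair B.

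**Figure D2:**
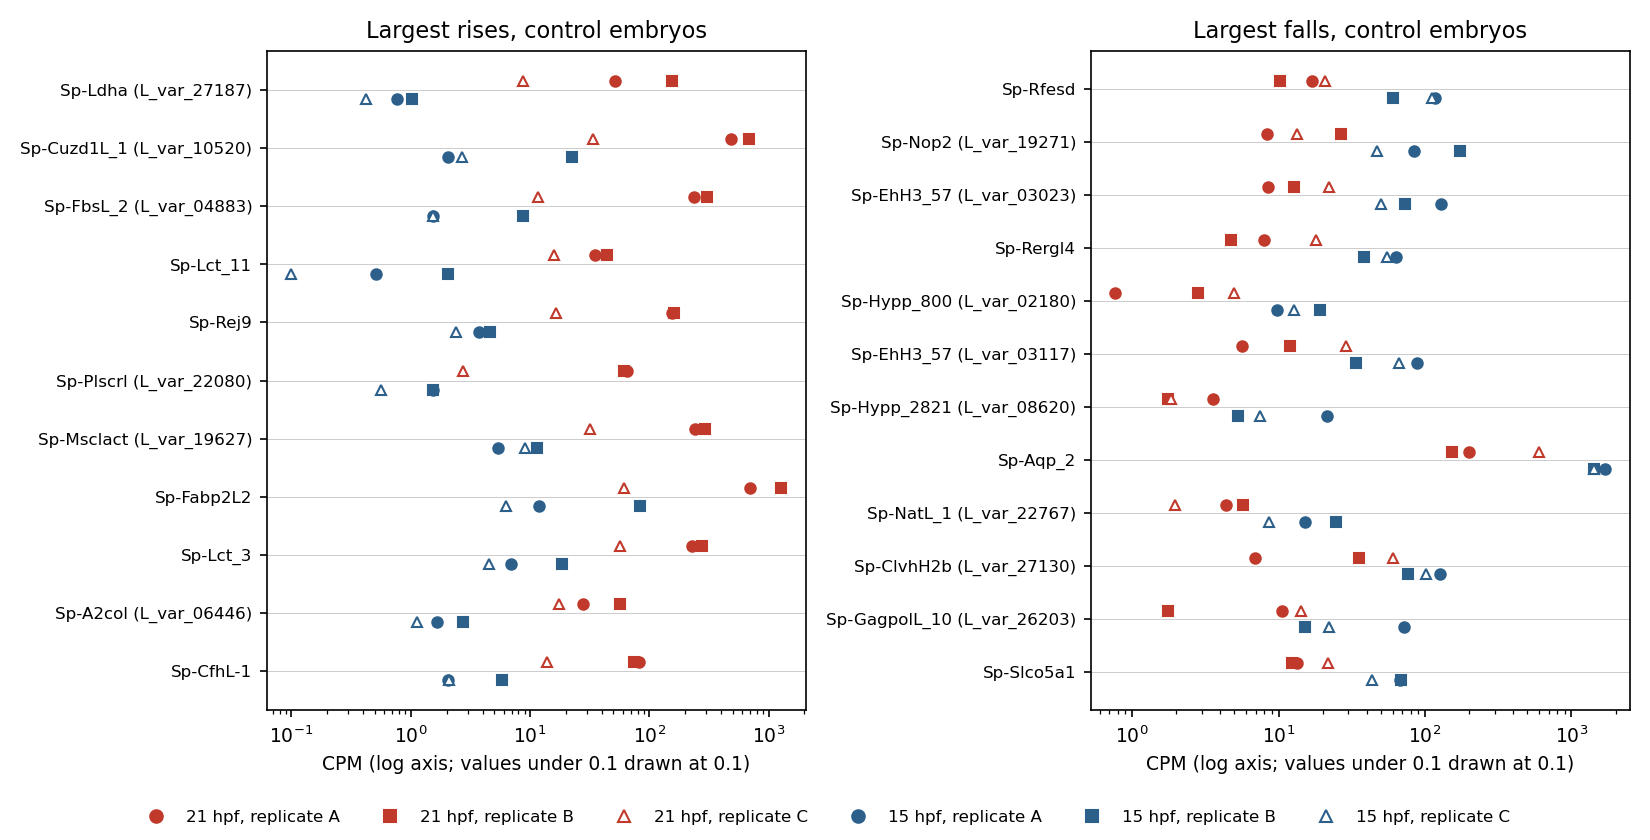
CPM per library on a log axis for 11 named gene models among those with the largest rises (left) and the 12 with the largest falls (right), red for 21 hpf and blue for 15 hpf, with a circle for replicate A, a square for B and an open triangle for C. Among the rises the open red triangle is the lowest 21 hpf value in all 11 models, for example 8.76 CPM for Sp-Ldha against 51.5 and 155 CPM in A and B. Gene identifiers are added where a name is carried by several models.

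Muscle genes were the list with the largest share of members higher at 21 hpf. Of 22 models in the list, 15 were tested, and 8 of these (53.3%) were higher and 0 lower (edgeR, 10 higher and 0 lower at an unadjusted p under 0.05; 0 lower also by DESeq2 and limma-voom). Of all tested models 7.35% were higher and 5.91% lower. The median log2 fold change of the list was 1.23, against 0.03 over all tested models. With A and B alone the same counts were found, 8 and 0, with a median of 1.29, and 1 member passed without replicate A and 0 without replicate B. Sp-MyoD, the myogenic bHLH factor that opens the muscle programme (L_var_26700, chromosome 19, 6437436 to 6444509), had 6.52, 5.02 and 3.33 CPM at 21 hpf, against 0, 0.17 and 0.987 CPM at 15 hpf. No 15 hpf library overlapped with the 21 hpf libraries, and its log2 fold change was 3.78 ± 0.79 (SE, adjusted p 0.00542 by edgeR, with 6.04 and p 0.00166 from A and B alone). Sp-FoxL1 and Sp-FoxC, forkhead genes that lie near each other on chromosome 2 and are used in mesoderm, rose with log2 fold changes of 2.92 ± 0.85 (SE, adjusted p 0.0324 by edgeR, with 3.07 and p 0.00238 from A and B alone) and 2.19 ± 0.53 (SE, adjusted p 0.0128 by edgeR, with 2.24 and p 0.0204 from A and B alone). Sp-Tbx6, a T-box factor of mesoderm, had 7.03, 11.7 and 2.59 CPM at 21 hpf, against 1.93, 1.53 and 1.97 CPM at 15 hpf. The change in Sp-Tbx6 was 1.78 ± 0.53 (SE, adjusted p 0.0374 by edgeR, with 2.37 and p 0.00608 from A and B alone) on the log2 scale.

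Genes of the contractile apparatus rose too. Sp-Mrlc, a myosin regulatory light chain (L_var_20118, chromosome 12, 27760618 to 27774824), had 99.5, 119 and 19.9 CPM at 21 hpf, against 11.6, 18.6 and 5.64 CPM at 15 hpf. Its log2 fold change was 2.63 ± 0.54 (SE, adjusted p 0.00525 by edgeR, with 2.88 and p 9.47e-05 from A and B alone). Sp-Trop1, annotated as troponin I, the inhibitory subunit of the calcium switch of striated muscle, has 2 gene models, which rose with log2 fold changes of 1.23 ± 0.26 (SE, adjusted p 0.0056 by edgeR, with 1.29 and p 0.0112 from A and B alone) and 0.98 ± 0.24 (SE, adjusted p 0.0151 by edgeR, with 1.15 and p 0.0105 from A and B alone). The titin-like model Sp-TtnL_1 (L_var_02499, chromosome 1, 84496521 to 84625267) had 46.0, 62.9 and 39.5 CPM at 21 hpf, against 21.7, 22.3 and 22.4 CPM at 15 hpf, a narrow spread at 15 hpf, with a log2 fold change of 1.15 ± 0.21 (SE, adjusted p 0.00244 by edgeR, with 1.30 and p 0.00376 from A and B alone). Outside the list, the muscle actin gene Sp-Msclact (L_var_19627, chromosome 12, 10128683 to 10132826) had 239.9, 294 and 31.8 CPM at 21 hpf, against 5.4, 11.4 and 9.02 CPM at 15 hpf. Replicates A and B were similar at 21 hpf while replicate C was far lower, although still above every 15 hpf library, and the log2 fold change was 4.71 ± 0.93 (SE, adjusted p 0.00383 by edgeR, with 5.08 and p 1.68e-06 from A and B alone). The name M actin is carried by 4 gene models. Most of the change in this gene fell after 18 hpf, when it had 14.9, 17.9 and 12.6 CPM.

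**Figure D3:**
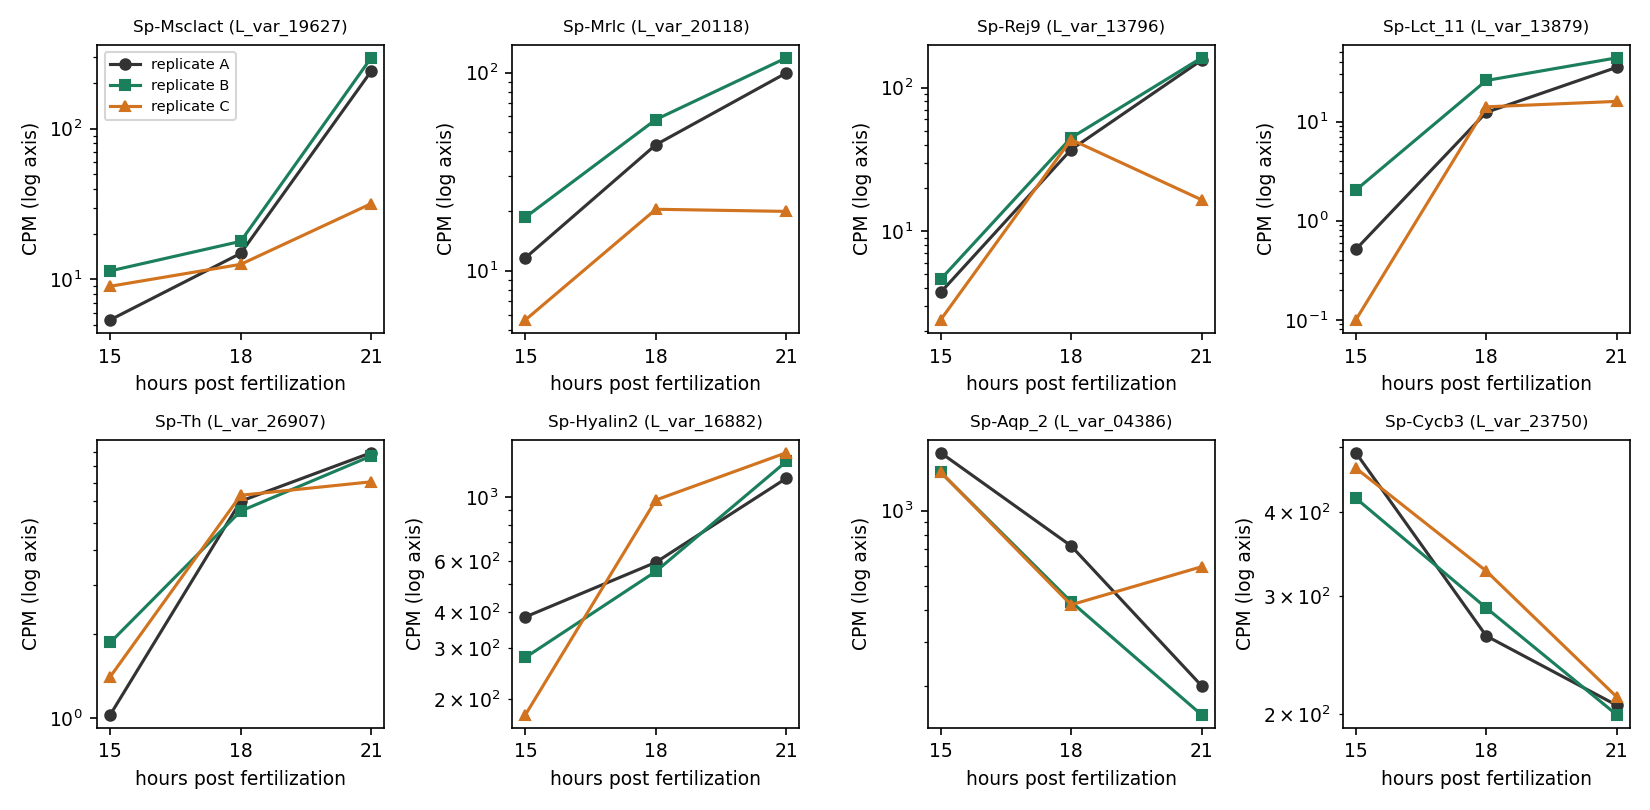
CPM on a log axis at 15, 18 and 21 hpf in the 9 control libraries, 1 line per replicate letter, for 8 gene models of the groups described in the text. Muscle actin (Sp-Msclact) rises mainly after 18 hpf in replicates A and B, and in Sp-Rej9 the replicate C line ends lowest, at 16.5 CPM at 21 hpf. Sp-Hyalin2 is higher and Sp-Cycb3 lower at each later time in all 3 replicates. Values under 0.1 CPM are drawn at 0.1.

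Among the endoderm and gut regulators, several homeobox and forkhead genes rose while Brachyury and Hox11/13b fell with all replicates. Of 18 tested regulators (20 in the list), 5 were higher and 3 lower, 27.8% and 16.7%, against 7.35% and 5.91% of all tested models. Their median log2 fold change was 0.17. With A and B alone 6 were higher and 2 lower (33.3% and 11.1%, against 6.91% and 4.67%). Sp-Lox, the homologue of the pancreas and midgut factor Pdx1, has 2 gene models, and the first (L_var_00399, chromosome 1, 15507568 to 15529787) had 21.1, 20.1 and 6.05 CPM at 21 hpf, against 0.642, 2.39 and 1.13 CPM at 15 hpf. Both models rose, with log2 fold changes of 3.76 ± 0.73 (SE, adjusted p 0.0036 by edgeR, with 3.97 and p 0.000536 from A and B alone) and 3.22 ± 0.70 (SE, adjusted p 0.00678 by edgeR, with 3.44 and p 0.000185 from A and B alone). Sp-FoxD_1, a forkhead gene (L_var_19291, chromosome 11, 34984068 to 34985249), had 57.3, 54.6 and 5.92 CPM at 21 hpf, against 2.7, 6.64 and 0.846 CPM at 15 hpf. The change in Sp-FoxD_1 was 3.59 ± 0.73 (SE, adjusted p 0.00465 by edgeR, with 3.73 and p 0.000112 from A and B alone) on the log2 scale. Another forkhead gene, Sp-FoxI (L_var_19606, chromosome 12, 9368246 to 9369304), had 30.4, 28.4 and 2.35 CPM at 21 hpf, against 0.514, 1.02 and 0.705 CPM at 15 hpf. The change in Sp-FoxI was 4.66 ± 0.72 (SE, adjusted p 0.000903 by edgeR, with 5.32 and p 4.09e-05 from A and B alone) on the log2 scale. Sp-Hb9, a Mnx homeobox gene (L_var_06653, chromosome 3, 35781181 to 35785544), had 6.14, 5.76 and 0.617 CPM at 21 hpf, against 0.128, 0 and 0.141 CPM at 15 hpf. Replicate C held 5 counts at 21 hpf, no 15 hpf library held more than 3 counts, the detection floor per library, and the 21 hpf level was at least 9.48-fold higher (edgeR adjusted p 0.00999, and 0.000487 with A and B alone). That name is carried by 3 models.

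On the falling side, Sp-Bra, the Brachyury gene of endoderm and oral ectoderm (L_var_08961, chromosome 4, 36260375 to 36275854), had 216, 227 and 194 CPM at 21 hpf, against 397, 504 and 459 CPM at 15 hpf. Its libraries did not overlap, and the log2 fold change was -1.11 ± 0.26 (SE, adjusted p 0.0103 by edgeR, with -1.02 and p 0.0682 from A and B alone). The hindgut gene Sp-Hox11/13b has 2 gene models, which fell by 0.59 and 0.51 on the log2 scale (edgeR adjusted p 0.0444 and 0.0374, and 0.114 and 0.164 with A and B alone). Sp-Eve had 185, 206 and 523 CPM at 21 hpf, against 695, 613 and 591 CPM at 15 hpf. This even-skipped gene of the vegetal plate passed with A and B alone, at -1.72 (edgeR adjusted p 0.0029), and not with replicate C (-1.03, edgeR adjusted p 0.0868). The gut marker Sp-Endo16, a secreted protein of the midgut, had 888, 873 and 2742 CPM at 21 hpf, against 590.1, 698 and 450.5 CPM at 15 hpf, with a log2 fold change of 1.35 ± 0.46 (SE, adjusted p 0.0636 by edgeR, with 0.47 and p 0.432 from A and B alone). Its replicate C library was far above the others at 21 hpf. Sp-FoxA, a foregut and endoderm regulator, had 1005, 954 and 800.3 CPM at 21 hpf, against 1079, 2463 and 2038 CPM at 15 hpf and did not pass (edgeR adjusted p 0.058). Without replicate A, 1 of these regulators was higher and 2 were lower, and without replicate B none passed (0 and 0, edgeR).

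Several digestive enzyme genes rose. Of 100 models matched, 57 were tested, and 10 (17.5%) were higher and 0 lower (edgeR; 7 lower at an unadjusted p under 0.05, 2 lower by DESeq2 and 0 by limma-voom). The median was 0.20, against 0.03 over all tested models, and with A and B alone 11 were higher and 0 lower. Without replicate A 3 passed, and without replicate B 2. Sp-Mgam_3, a maltase-glucoamylase that cleaves starch sugars, has 2 gene models, of which L_var_24669 on chromosome 16 had 52.6, 59.7 and 25.5 CPM at 21 hpf, against 3.85, 16.2 and 4.65 CPM at 15 hpf. They rose with log2 fold changes of 2.69 ± 0.45 (SE, adjusted p 0.00136 by edgeR, with 2.76 and p 0.0035 from A and B alone) and 2.74 ± 0.57 (SE, adjusted p 0.00539 by edgeR, with 2.90 and p 0.00863 from A and B alone). Alkaline phosphatase Sp-Alpl_1, whose best protein hit is an intestinal type (L_var_22504, chromosome 14, 27080233 to 27095298), had 55.0, 45.6 and 5.8 CPM at 21 hpf, against 2.18, 0.341 and 3.95 CPM at 15 hpf. Its log2 fold change was 3.76 ± 0.75 (SE, adjusted p 0.00397 by edgeR, with 5.27 and p 3.79e-05 from A and B alone). The aminopeptidase N gene Sp-Anpep_1 (L_var_07089), a brush border peptidase, had 247, 214 and 76.4 CPM at 21 hpf, against 56.7, 55.2 and 52.7 CPM at 15 hpf, with a log2 fold change of 1.70 ± 0.39 (SE, adjusted p 0.00992 by edgeR, with 2.06 and p 0.000334 from A and B alone). Sp-Cpa3, a carboxypeptidase (L_var_05503, chromosome 2, 81226642 to 81239573), had 19.6, 8.86 and 0.617 CPM at 21 hpf, against 0.128, 1.02 and 0.282 CPM at 15 hpf. Replicate C at 21 hpf was below replicate B at 15 hpf, and its log2 fold change was 4.64 ± 1.40 (SE, adjusted p 0.0377 by edgeR, with 4.88 and p 0.00433 from A and B alone).

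The skeletogenic list gave different answers with and without replicate C. With all replicates 3 of 17 tested regulators (18 in the list) were higher and 1 lower, 17.6% and 5.88%. The shares of all tested models were 7.35% and 5.91%. With A and B alone 1 was higher and 5 lower, 29.4% lower against 4.67% of all models tested in that fit. Sp-Tbr, a T-box factor of skeletogenic cells (L_var_02106, chromosome 1, 72002990 to 72016307), had 30.9, 27.8 and 193 CPM at 21 hpf, against 192, 131 and 159 CPM at 15 hpf. At 21 hpf replicates A and B were below, and replicate C above every 15 hpf library, and the log2 fold change was -1.17 ± 0.52 (SE, adjusted p 0.154 by edgeR, with -2.44 and p 0.000112 from A and B alone). Sp-Ets1/2, the Ets factor that activates the skeletogenic genes, has 2 gene models, both lower with A and B alone, of which L_var_14420 had 48.2, 58.5 and 209 CPM at 21 hpf, against 312, 128 and 218 CPM at 15 hpf. The change in Sp-Ets1/2 was -1.11 ± 0.42 (SE, adjusted p 0.0891 by edgeR, with -1.91 and p 0.00315 from A and B alone) on the log2 scale. Sp-Alx1, the homeobox gene that commits cells to the skeletogenic fate (L_var_16422, chromosome 9, 20842851 to 20851004), had 29.8, 30.7 and 94.3 CPM at 21 hpf, against 95.7, 42.4 and 73.3 CPM at 15 hpf. Replicates A and B were again below the 15 hpf libraries and replicate C lay within their range, and its log2 fold change was -0.36 ± 0.46 (SE, adjusted p 0.655 by edgeR, with -1.06 and p 0.0199 from A and B alone). Sp-Vegfr10, the receptor by which these cells sense Vegf, had 24.3, 17.4 and 73.2 CPM at 21 hpf, against 48.7, 31.5 and 42.6 CPM at 15 hpf (-0.92 with A and B alone, edgeR adjusted p 0.0111). The members higher with all replicates were both models of Sp-FoxO_1 (1.12 and 1.04) and Sp-Snail (1.34), with edgeR adjusted p-values of 0.0136, 0.0143 and 0.0306. In A and B alone they were 1.07, 1.00 and 0.97 on the log2 scale (edgeR adjusted p 0.0499, 0.0603 and 0.0534), so that 1 of the 3 passed in both fits. Neither without replicate A nor without replicate B did a member pass (edgeR, 0 in each; with all replicates 4 were higher and 5 lower at an unadjusted p under 0.05).

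Of 40 tested biomineralization genes (43 in the list), 4 were higher (10%, near the 7.35% of all tested models) and 0 lower (edgeR; 3 lower at an unadjusted p under 0.05, 1 lower by DESeq2, 0 by limma-voom), and with A and B alone 4 were higher and 2 lower, of which 2 had also passed with all replicates. Without replicate A, and without replicate B, 2 passed. Sp-Msp130r4, of the Msp130 family of skeletogenic surface glycoproteins (L_var_22341, chromosome 14, 21526689 to 21545189), had 8.06, 12 and 5.92 CPM at 21 hpf, against 0.385, 0.852 and 1.55 CPM at 15 hpf. Its log2 fold change was 3.24 ± 0.52 (SE, adjusted p 0.00108 by edgeR, with 4.06 and p 0.000463 from A and B alone). Sp-Cara7LA, a carbonic anhydrase, an enzyme type that supplies bicarbonate (L_var_04705, chromosome 2, 61063524 to 61076232), had 41.0, 30.6 and 14.1 CPM at 21 hpf, against 5.52, 8.69 and 7.33 CPM at 15 hpf. The change in Sp-Cara7LA was 1.99 ± 0.38 (SE, adjusted p 0.00306 by edgeR, with 2.36 and p 0.00102 from A and B alone) on the log2 scale. Sp-Sm30F, a spicule matrix gene (L_var_26911, chromosome 19, 13321721 to 13326389), had 41.3, 54.5 and 2.47 CPM at 21 hpf, against 4.88, 4.6 and 4.09 CPM at 15 hpf. It passed with A and B alone (3.35, edgeR adjusted p 0.00102) and not with all replicates (2.67, edgeR adjusted p 0.0753). A pair of genes often used as skeletal markers did not pass. Sp-Msp130 had 916, 677 and 1679 CPM at 21 hpf, against 1535, 1946 and 1906 CPM at 15 hpf and Sp-Sm50, a spicule matrix gene, had 187, 167 and 342 CPM at 21 hpf, against 122, 278 and 206 CPM at 15 hpf (edgeR adjusted p 0.25 and 0.718, and 0.0871 and 0.941 with A and B alone). Sp-Msp130 was lower at 21 hpf in the 3 pairs, by less in pair C, while the pairs of Sp-Sm50 differed in direction.

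Pigment cell genes held 7 higher and 1 lower of 58 tested (67 in the list), 12.1% and 1.72%. The shares of all tested models were 7.35% and 5.91%. With A and B alone 10 were higher and 5 lower (17.2% and 8.62%, against 6.91% and 4.67%). No member passed without replicate A (edgeR, 0 higher and 0 lower), and 1 each way passed without replicate B. The 7 came from large families of biotransformation and cytokine-like genes, namely 4 models of cytosolic sulfotransferases, 1 flavin monooxygenase and 2 models of Sp-MifL1. Sp-Sult1b1_1, a sulfotransferase (L_var_26890, chromosome 19, 12540272 to 12548214), had 1381, 1765 and 540.0 CPM at 21 hpf, against 211, 503 and 256 CPM at 15 hpf. The change in Sp-Sult1b1_1 was 1.99 ± 0.44 (SE, adjusted p 0.00793 by edgeR, with 2.32 and p 0.00631 from A and B alone) on the log2 scale. Neither the pigment cell regulator nor the pigment synthase gene passed with all replicates. Sp-Gcm, their glial cells missing factor (L_var_24790, chromosome 17, 1580114 to 1586989), had 255, 255 and 822 CPM at 21 hpf, against 669, 501 and 553 CPM at 15 hpf. It fell with A and B alone (-1.17, edgeR adjusted p 0.0222) and did not pass with replicate C (-0.38, edgeR adjusted p 0.604). The pigment synthase gene Sp-Pks1 had 3848, 2478 and 5120.5 CPM at 21 hpf, against 5126, 5113 and 4548 CPM at 15 hpf (edgeR adjusted p 0.548).

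Among 30 tested genes of blastocoelar cells and coelomic pouches (40 in the list), 8 were higher (26.7%) and 3 lower (10%), and 6 were higher and 8 lower with A and B alone. Without replicate A 2 were higher, without replicate B 1 was, and none was lower in either (edgeR; 10 lower with all replicates at an unadjusted p under 0.05). Among the rises, Sp-SoxE, a Sox factor (L_var_17157, chromosome 10, 7700464 to 7706520), had 20.7, 23.6 and 15.7 CPM at 21 hpf, against 7.07, 4.94 and 2.82 CPM at 15 hpf. Its libraries did not overlap, with a log2 fold change of 2.01 ± 0.31 (SE, adjusted p 0.000927 by edgeR, with 1.87 and p 0.00306 from A and B alone). Sp-Pax6_1, a Pax6 homologue known from eye and neural development in many animals (L_var_16040, chromosome 9, 8788406 to 8809008), had 21.4, 19.8 and 5.92 CPM at 21 hpf, against 3.21, 7.33 and 1.83 CPM at 15 hpf. The change in Sp-Pax6_1 was 2.01 ± 0.44 (SE, adjusted p 0.00733 by edgeR, with 2.12 and p 0.0146 from A and B alone) on the log2 scale. Replicate C at 21 hpf was below replicate B at 15 hpf in this gene. Sp-Eya, the eyes absent gene (L_var_25190, chromosome 17, 14366582 to 14385321), had 16.6, 16.2 and 31.2 CPM at 21 hpf, against 11.4, 7.84 and 6.06 CPM at 15 hpf. The change in Sp-Eya was 1.35 ± 0.35 (SE, adjusted p 0.0181 by edgeR, with 0.78 and p 0.0666 from A and B alone) on the log2 scale, with replicate C the highest. Sp-Dach, which acts in the same retinal determination network in Drosophila, moved the other way. It had 17.1, 13.4 and 62.1 CPM at 21 hpf, against 92.6, 68.8 and 84.9 CPM at 15 hpf (L_var_00427, chromosome 1, 16603572 to 16603973), a log2 fold change of -1.51 ± 0.43 (SE, adjusted p 0.0294 by edgeR, with -2.39 and p 2.86e-05 from A and B alone). Its 2 neighbouring models named Sp-Dach1 had -2.46 and -2.21 with A and B alone (edgeR adjusted p 9.47e-05 and 0.000153). They did not pass with all replicates (-1.37 and -1.36, edgeR adjusted p 0.0761 and 0.0582). Sp-Scl and both Sp-GataC models, blastocoelar cell factors, passed as lower with A and B alone, at -1.35, -1.39 and -1.61 (edgeR adjusted p 0.0104, 0.0313 and 0.013), while their replicate C libraries were near or above the 15 hpf level. Sp-Seawi_1, a Piwi family gene of the germ line, fell by a similar amount in the 3 pairs. It had 634, 611 and 628 CPM at 21 hpf, against 1160.5, 986 and 987 CPM at 15 hpf. The change in Sp-Seawi_1 was -0.74 ± 0.17 (SE, adjusted p 0.0104 by edgeR, with -0.77 and p 0.0631 from A and B alone) on the log2 scale.

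Several transmitter and vesicle genes of neurons rose. Of 38 tested neuronal effector genes (49 in the list), 6 were higher (15.8%) and 1 lower (2.63%), against 7.35% and 5.91% of all tested models. With A and B alone 5 were higher and 1 lower. Without replicate A, as without replicate B, 1 passed. Among 14 tested models of the synaptotagmins, a family of vesicle proteins, 0 were higher and 0 lower in either fit. Their median log2 fold change was -0.05 with all replicates and -0.13 with A and B alone. Sp-Th, tyrosine hydroxylase, the first enzyme of dopamine synthesis (L_var_26907, chromosome 19, 13255845 to 13288191), had 8.95, 8.71 and 7.04 CPM at 21 hpf, against 1.03, 1.87 and 1.41 CPM at 15 hpf. All 21 hpf libraries lay close together above the 15 hpf libraries, and the log2 fold change was 2.56 ± 0.40 (SE, adjusted p 0.00096 by edgeR, with 2.64 and p 0.0024 from A and B alone). Sp-Slc18a2, which loads monoamines into vesicles (L_var_20085, chromosome 12, 26296581 to 26315748), had 3.96, 5.76 and 2.22 CPM at 21 hpf, against 1.03, 0.852 and 0.705 CPM at 15 hpf. The change in Sp-Slc18a2 was 2.22 ± 0.49 (SE, adjusted p 0.0074 by edgeR, with 2.45 and p 0.0135 from A and B alone) on the log2 scale. Sp-Chat, choline acetyltransferase, which makes acetylcholine (L_var_26279, chromosome 18, 17057836 to 17082976), had 11.4, 15.7 and 1.73 CPM at 21 hpf, against 0.128, 2.9 and 0.987 CPM at 15 hpf. The change in Sp-Chat was 3.01 ± 0.87 (SE, adjusted p 0.0312 by edgeR, with 3.44 and p 0.00551 from A and B alone) on the log2 scale, and its groups overlapped through replicate C. The synaptic vesicle fusion genes Sp-SNAP25 and Sp-Vamp1 rose with log2 fold changes of 1.16 ± 0.29 (SE, adjusted p 0.0165 by edgeR, with 1.54 and p 0.0127 from A and B alone) and 1.17 ± 0.24 (SE, adjusted p 0.00511 by edgeR, with 1.27 and p 0.0129 from A and B alone). Sp-Ddc, an aromatic amino acid decarboxylase, was the member that fell, with 74.5, 56.3 and 102 CPM at 21 hpf, against 204, 231 and 163 CPM at 15 hpf. The change in Sp-Ddc was -1.27 ± 0.37 (SE, adjusted p 0.0315 by edgeR, with -1.71 and p 0.00804 from A and B alone) on the log2 scale.

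Among 34 tested neural and apical plate regulators (42 in the list), 1 was higher and 3 were lower (2.94% and 8.82%, against 7.35% and 5.91% of all tested models), and 4 were higher and 3 lower with A and B alone. No member passed without replicate A (edgeR, 0 each way), and 1 was higher without replicate B. Sp-ElavL, an RNA-binding protein gene named after the neuronal protein ELAV (L_var_19020, chromosome 11, 26268534 to 26307747), had 197, 172 and 288 CPM at 21 hpf, against 608, 511 and 649.8 CPM at 15 hpf. The 3 pairs all fell, with a log2 fold change of -1.43 ± 0.26 (SE, adjusted p 0.0023 by edgeR, with -1.59 and p 0.00164 from A and B alone). Sp-FoxQ2_1, the apical plate forkhead gene, has 2 gene models, and L_var_17029 had 88.9, 64.2 and 162 CPM at 21 hpf, against 279.5, 259.8 and 219 CPM at 15 hpf. The change in Sp-FoxQ2_1 was -1.22 ± 0.38 (SE, adjusted p 0.0443 by edgeR, with -1.84 and p 0.00522 from A and B alone) on the log2 scale. Sp-SoxC, a factor of neuronal precursors, had 310.2, 308 and 303 CPM at 21 hpf, against 486, 543 and 547 CPM at 15 hpf, with close replicates and a log2 fold change of -0.77 ± 0.17 (SE, adjusted p 0.00774 by edgeR, with -0.72 and p 0.0674 from A and B alone). The member that rose was Sp-Mbx1, a homeobox gene (L_var_25914, chromosome 18, 6025299 to 6033195), which had 45.6, 55.2 and 55.0 CPM at 21 hpf, against 14.1, 26.7 and 20.3 CPM at 15 hpf. The change in Sp-Mbx1 was 1.42 ± 0.33 (SE, adjusted p 0.0103 by edgeR, with 1.40 and p 0.0199 from A and B alone) on the log2 scale.

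In the ectoderm list, 3 of 31 tested members were higher and 1 lower (34 in the list), 9.68% and 3.23% against 7.35% and 5.91% of all tested models, and 4 and 1 with A and B alone; none passed without replicate A or without replicate B (edgeR, 0 each way). Both models of Sp-Onecut, the ciliary band gene, rose (L_var_11599, chromosome 6, 4738829 to 4782306). The first had 222, 176 and 128 CPM at 21 hpf, against 91.0, 81.1 and 90.5 CPM at 15 hpf, a log2 fold change of 1.03 ± 0.25 (SE, adjusted p 0.0136 by edgeR, with 1.22 and p 0.00327 from A and B alone), and the second had a log2 fold change of 1.08 ± 0.28 (SE, adjusted p 0.0172 by edgeR, with 1.24 and p 0.0074 from A and B alone). The member that fell was Sp-Bmp5-8_1, a Bmp ligand. It had 111, 86.4 and 185 CPM at 21 hpf, against 399, 175 and 259 CPM at 15 hpf. The change in Sp-Bmp5-8_1 was -1.05 ± 0.27 (SE, adjusted p 0.0174 by edgeR, with -1.42 and p 0.00238 from A and B alone) on the log2 scale.

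The aboral ectoderm and hatching list held 5 higher and 0 lower of 21 tested (28 in the list; edgeR, 0 lower at an unadjusted p under 0.05 and 0 lower by DESeq2 and limma-voom), 23.8% higher, and 5 higher and 1 lower with A and B alone. Of all tested models 7.35% were higher and 5.91% lower. Hyalin genes, which encode the protein of the layer that coats the embryo, made up 3 of the 5 higher members. Sp-Hyalin15 (L_var_03194, chromosome 2, 11480398 to 11568515) had 979, 1021 and 919.9 CPM at 21 hpf, against 307, 249 and 231 CPM at 15 hpf. Sp-Hyalin2 has 2 gene models, of which L_var_16882 on chromosome 9 had 1162, 1329 and 1425 CPM at 21 hpf, against 385, 279 and 176 CPM at 15 hpf. In all 3 models the 21 hpf libraries were close, and at 15 hpf replicate C had the lowest value. The log2 fold changes were 1.89 ± 0.26 (SE, adjusted p 0.000491 by edgeR, with 1.87 and p 0.00102 from A and B alone) for Sp-Hyalin15 and 2.2 ± 0.32 (SE, adjusted p 0.000626 by edgeR, with 1.93 and p 0.00155 from A and B alone) and 2.21 ± 0.30 (SE, adjusted p 0.000452 by edgeR, with 1.98 and p 0.00112 from A and B alone) for Sp-Hyalin2, and these 3 passed under all 10 alternatives tried. Without replicate A 4 of the list passed and without replicate B 3. The hatching enzyme gene Sp-He1, whose protease digests the fertilization envelope (L_var_26372, chromosome 18, 20334126 to 20340949), had 7.29, 44.3 and 53.3 CPM at 21 hpf, against 541, 55.7 and 29.5 CPM at 15 hpf. The 15 hpf library of replicate A stood far above the others, pair B differed by -0.33 on the log2 scale and pair C went the other way (0.85). The difference passed with A and B alone (-3.46, edgeR adjusted p 0.0465) and not with all replicates (edgeR adjusted p 0.179).

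Of 44 tested signalling genes (50 in the list), 6 were higher and 2 lower, 13.6% and 4.55%. The shares of all tested models were 7.35% and 5.91%. With A and B alone 3 were higher and 5 lower (6.82% and 11.4%, against 6.91% and 4.67%). Without replicate A 2 were higher and 1 lower, and without replicate B 1 was lower. Secreted Wnt ligands made up 5 of the 6. Sp-Wnt6 (L_var_02312, chromosome 1, 78414126 to 78438829) had 13.8, 18.6 and 18.8 CPM at 21 hpf, against 8.86, 7.5 and 8.18 CPM at 15 hpf. The change in Sp-Wnt6 was 1.06 ± 0.21 (SE, adjusted p 0.00398 by edgeR, with 1.00 and p 0.0253 from A and B alone) on the log2 scale. Sp-Wnt3, Sp-WntA, Sp-Wnt10 and Sp-Wnt9 rose with log2 fold changes of 1.13, 1.11, 1.27 and 1.71 (edgeR adjusted p 0.0301, 0.0251, 0.0295 and 0.0492), of which Sp-Wnt3 and Sp-Wnt6 also passed with A and B alone (0.0124 and 0.0253). Sp-Wnt8, the early endomesoderm ligand (L_var_26156, chromosome 18, 13187433 to 13193620), went the other way. It had 132, 132 and 252 CPM at 21 hpf, against 401, 415 and 347 CPM at 15 hpf. The change in Sp-Wnt8 was -1.17 ± 0.27 (SE, adjusted p 0.0106 by edgeR, with -1.63 and p 0.00186 from A and B alone) on the log2 scale. Sp-Dkk3, of the Dickkopf family of secreted proteins, had 20.1, 16.5 and 14.7 CPM at 21 hpf, against 39.3, 45.3 and 35.2 CPM at 15 hpf, a log2 fold change of -1.24 ± 0.21 (SE, adjusted p 0.00153 by edgeR, with -1.22 and p 0.0127 from A and B alone). Sp-Ptc, the hedgehog receptor (L_var_19204, chromosome 11, 32431935 to 32486424), had 72.5, 73.8 and 73.1 CPM at 21 hpf, against 50.9, 26.9 and 34.4 CPM at 15 hpf. The change in Sp-Ptc was 1.04 ± 0.23 (SE, adjusted p 0.00724 by edgeR, with 1.04 and p 0.0403 from A and B alone) on the log2 scale, while the ligand Sp-Hh had 23.0, 22.0 and 26.7 CPM at 21 hpf, against 14.5, 17.2 and 20.6 CPM at 15 hpf and did not pass (edgeR adjusted p 0.259).

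**Figure D4:**
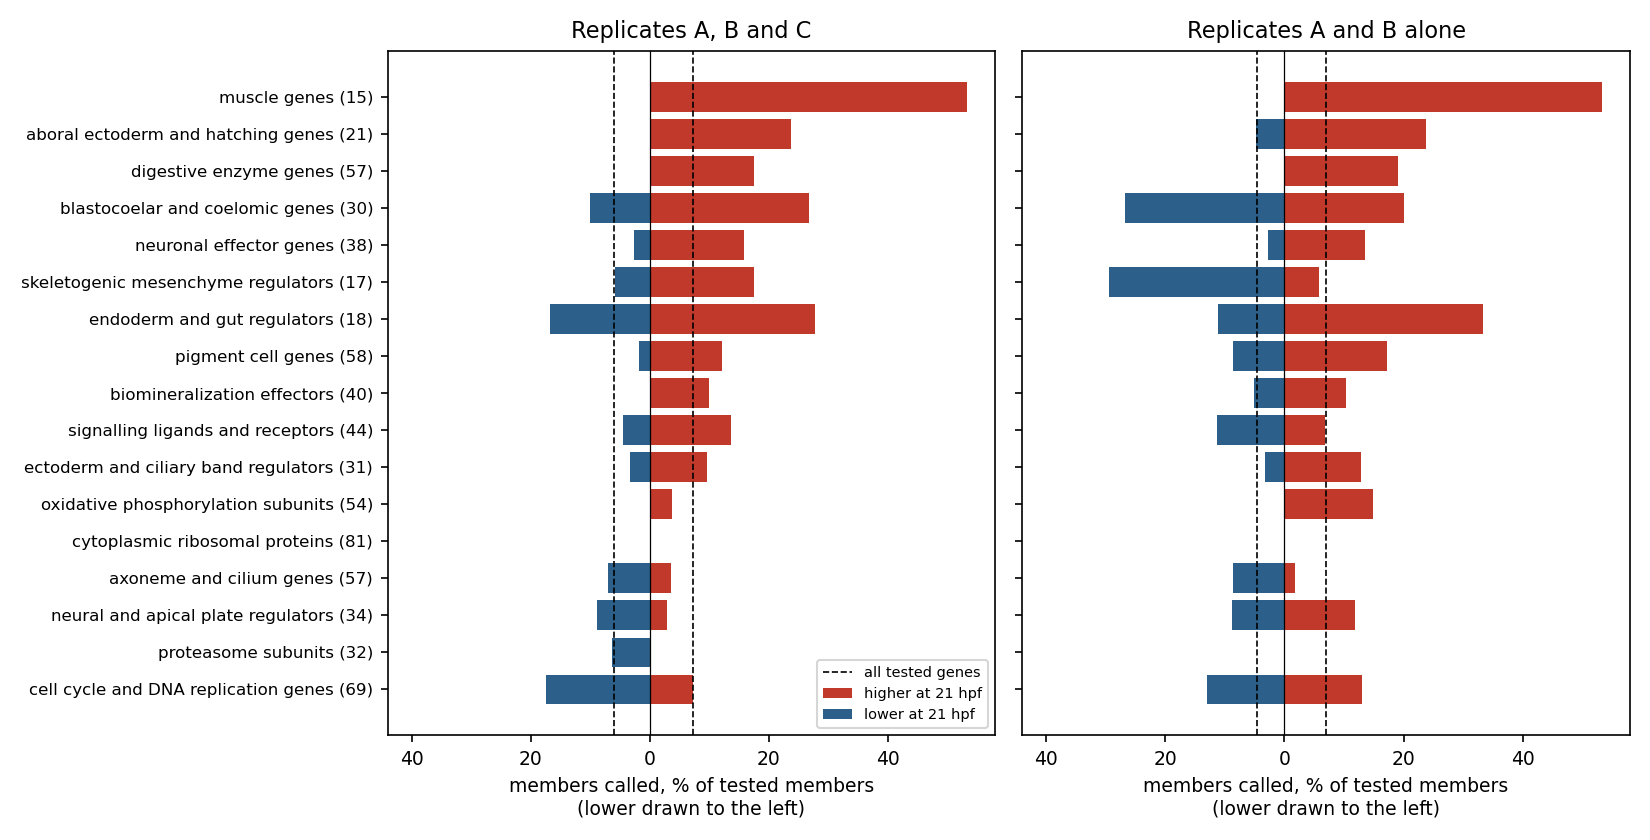
Percent of the tested members of each of 17 gene lists that were called higher (red, to the right) or lower (blue, to the left) at 21 hpf, with all replicates (left panel) and with replicates A and B alone (right panel). The number tested with all replicates is in brackets and dashed lines mark the percent of all tested models, 7.35% and 5.91% on the left and 6.91% and 4.67% on the right. Muscle genes reach 53.3% higher in both panels, and skeletogenic regulators go to 29.4% lower in the right panel.

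The largest falls included models named after an RNA methyltransferase, embryonic histones and a water channel. Sp-Nop2, annotated as a putative ribosomal RNA methyltransferase (L_var_19271, chromosome 11, 34305085 to 34306999), had 8.31, 26.6 and 13.3 CPM at 21 hpf, against 83.6, 172 and 47.0 CPM at 15 hpf. It fell in the 3 pairs, with a log2 fold change of -2.56 ± 0.25 (SE, adjusted p 0.000106 by edgeR, with -2.98 and p 2.86e-05 from A and B alone), and its name is carried by 6 models. A pair of models named after an embryonic histone H3, Sp-EhH3_57, was among them, and L_var_03023 on chromosome 2 had 8.44, 12.7 and 22.0 CPM at 21 hpf, against 128, 72.6 and 49.9 CPM at 15 hpf. The change in Sp-EhH3_57 was -2.44 ± 0.42 (SE, adjusted p 0.00166 by edgeR, with -3.33 and p 0.000193 from A and B alone) on the log2 scale. That name belongs to 19 gene models of a repeated family, so reads cannot be assigned with certainty. Sp-ClvhH2b, a cleavage-stage histone H2B, had 6.9, 35.6 and 60.6 CPM at 21 hpf, against 126, 76.2 and 102 CPM at 15 hpf. The change in Sp-ClvhH2b was -1.99 ± 0.57 (SE, adjusted p 0.0306 by edgeR, with -2.89 and p 0.0114 from A and B alone) on the log2 scale. Sp-Rfesd, with a Rieske iron-sulfur domain (L_var_16399, chromosome 9, 20324047 to 20328449), had 16.9, 10.3 and 20.9 CPM at 21 hpf, against 117, 60.1 and 111 CPM at 15 hpf. The change in Sp-Rfesd was -2.56 ± 0.28 (SE, adjusted p 0.000135 by edgeR, with -2.66 and p 2.84e-05 from A and B alone) on the log2 scale. Sp-Rergl4, a small GTPase of the Ras superfamily (L_var_27202, chromosome 19, 23282299 to 23287064), had 7.93, 4.73 and 18.1 CPM at 21 hpf, against 63.1, 38.3 and 55.0 CPM at 15 hpf. The change in Sp-Rergl4 was -2.40 ± 0.33 (SE, adjusted p 0.000441 by edgeR, with -2.99 and p 2.86e-05 from A and B alone) on the log2 scale. In none of these 5 models did a 21 hpf library reach the lowest 15 hpf library. Sp-Aqp_2, an aquaporin water channel (L_var_04386, chromosome 2, 50491369 to 50523053), had 200.2, 153 and 597 CPM at 21 hpf, against 1702, 1423 and 1425 CPM at 15 hpf. Its replicate C library lay between the other 21 hpf libraries and the 15 hpf libraries, and the log2 fold change was -2.15 ± 0.62 (SE, adjusted p 0.0306 by edgeR, with -3.14 and p 0.00147 from A and B alone).

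With A and B alone the largest falls included 3 of 4 models named Sp-Z474, a zinc finger gene. One of them (L_var_21468, chromosome 13, 32702098 to 32703794) had 1.92, 2.36 and 25.7 CPM at 21 hpf, against 63.3, 18.9 and 30.5 CPM at 15 hpf. Replicate C was near its 15 hpf level, and the log2 fold change was -1.87 ± 0.72 (SE, adjusted p 0.0985 by edgeR, with -4.12 and p 0.000466 from A and B alone). Sp-Slco5a1, an organic anion transporter homologue (L_var_13969, chromosome 7, 33018150 to 33036173), had 13.3, 12.3 and 21.7 CPM at 21 hpf, against 68.0, 69.0 and 43.3 CPM at 15 hpf and passed in both. The change in Sp-Slco5a1 was -1.85 ± 0.27 (SE, adjusted p 0.000652 by edgeR, with -2.41 and p 3.68e-05 from A and B alone) on the log2 scale. Sp-Hypp_800, Sp-Hypp_2821, Sp-NatL_1 and Sp-GagpolL_10 fell by 2.29, 2.16, 2.01 and 1.89 on the log2 scale (edgeR adjusted p 0.00181, 0.0015, 0.000441 and 0.0137). They passed with A and B alone too (edgeR adjusted p 0.000425, 0.00423, 0.000704 and 0.00146). The names of these last 4 are each carried by several gene models.

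Among cell cycle and DNA replication genes, the share that fell was above that of all tested models, and the share that rose was not. Of 69 tested members (70 in the list), 12 were lower (17.4%) and 5 higher (7.25%), against 5.91% and 7.35% of all tested models. With A and B alone 9 were lower and 9 higher. Without replicate A, as without replicate B, 5 were lower and 1 was higher. Sp-Cdc20, the activator of the anaphase-promoting complex, has 4 gene models, and L_var_18422 on chromosome 11 had 80.8, 63.8 and 82.4 CPM at 21 hpf, against 242, 182 and 231 CPM at 15 hpf. Its log2 fold change was -1.52 ± 0.17 (SE, adjusted p 0.000152 by edgeR, with -1.54 and p 0.000643 from A and B alone). Sp-Cycb3, cyclin B3 (L_var_23750, chromosome 16, 1393308 to 1407250), had 206, 199 and 212 CPM at 21 hpf, against 491, 419.6 and 465 CPM at 15 hpf, and the log2 fold change was -1.16 ± 0.16 (SE, adjusted p 0.000491 by edgeR, with -1.16 and p 0.00473 from A and B alone). These 2 genes had narrow replicates, C included. Both models of cyclin B (Sp-Cycb_1) fell by 1.26 and 1.19, and both of the mitotic kinase Sp-Plk1 by 1.06 and 1.03 on the log2 scale. These 4 models passed in both fits (edgeR adjusted p 0.00193 to 0.00582, and 0.012 to 0.0211 with A and B alone). The cyclin-dependent kinase Sp-Cdk1 had 595, 541 and 339 CPM at 21 hpf, against 873, 1069.7 and 858 CPM at 15 hpf. The change in Sp-Cdk1 was -0.95 ± 0.22 (SE, adjusted p 0.0113 by edgeR, with -0.76 and p 0.0759 from A and B alone) on the log2 scale. Geminin (Sp-GmnnL), Sp-Cdt1 and both Sp-E2f3 models also fell, with edgeR adjusted p-values between 0.0249 and 0.0422, and of these only geminin passed with A and B alone.

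The 5 members that rose with all replicates, a share no larger than that of all tested models, act in DNA synthesis. Sp-Rrm1, the large subunit of ribonucleotide reductase, which makes deoxyribonucleotides (L_var_00476, chromosome 1, 17887153 to 17903861), had 804, 796 and 274 CPM at 21 hpf, against 186, 375 and 139 CPM at 15 hpf. Its log2 fold change was 1.46 ± 0.33 (SE, adjusted p 0.00933 by edgeR, with 1.65 and p 0.00956 from A and B alone). The DNA polymerase genes Sp-Pole, Sp-Pold3 and Sp-Pola2 rose with log2 fold changes of 0.92, 1.06 and 0.72, and the clamp loader gene Sp-Rfc1 with 0.84 (edgeR adjusted p 0.00871, 0.0253, 0.0266 and 0.0186). The polymerase genes also passed with A and B alone and Sp-Rfc1 did not (edgeR adjusted p 0.131). The sliding clamp gene Sp-Pcna had 871, 893 and 262 CPM at 21 hpf, against 224, 437 and 285 CPM at 15 hpf. It passed with A and B alone (1.52, edgeR adjusted p 0.00529) and missed with all replicates (1.08, edgeR adjusted p 0.0532). Of 7 tested MCM helicase models, 0 passed with all replicates and 1 was higher with A and B alone (edgeR). The split by role was read after the values had been seen and was not tested.

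**Figure D5:**
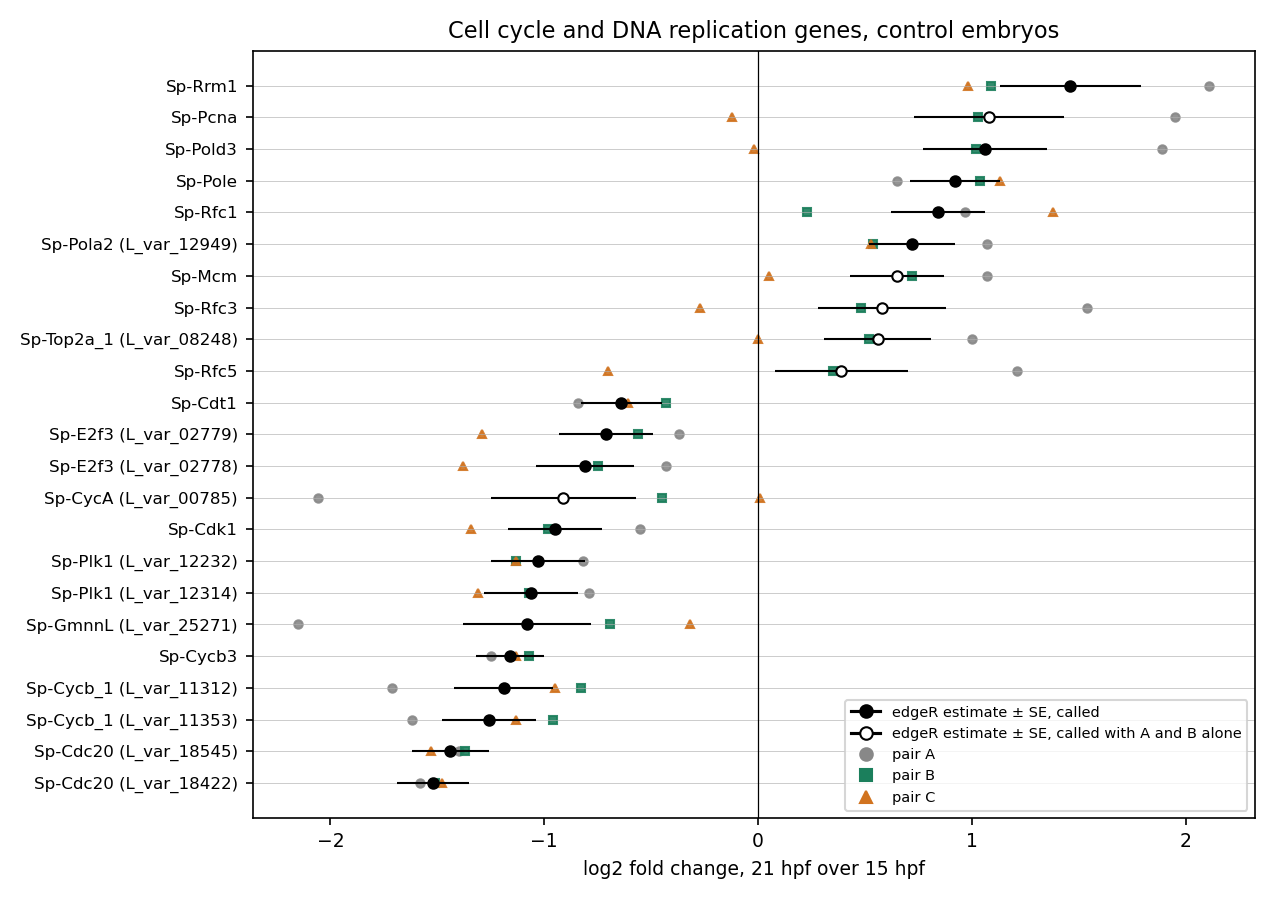
Log2 fold changes (21 hpf over 15 hpf) of the 23 cell cycle and DNA replication models called with all replicates or with A and B alone. Circles with bars are edgeR estimates ± SE, filled where called with all replicates and open where called with A and B alone only, and small symbols are the log2 differences of pairs A, B and C. Mitotic genes such as Sp-Cdc20 (-1.52) lie at the bottom with pairs close together, and DNA synthesis genes such as Sp-Rrm1 (1.46) lie at the top, where pair C is often the lowest, as in Sp-Pold3 (-0.02).

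Of 57 tested cilium genes (62 in the list), 2 were higher and 4 lower, 3.51% and 7.02%. The shares of all tested models were 7.35% and 5.91%. With A and B alone 1 was higher and 5 were lower, and at most 1 each way passed without replicate A or without replicate B. The tubulin family of the annotation, described below with 9 of 33 tested models higher, was not in this list as a whole. The 4 that fell were all tektins, filament proteins of the axoneme. Sp-Tektin1-1 (L_var_17653, chromosome 10, 23020770 to 23027489) had 306, 303 and 150.3 CPM at 21 hpf, against 665, 615 and 552 CPM at 15 hpf. The change in Sp-Tektin1-1 was -1.31 ± 0.29 (SE, adjusted p 0.00777 by edgeR, with -1.06 and p 0.027 from A and B alone) on the log2 scale. In all 4 genes replicate C was the lowest of the 21 hpf libraries, and Sp-Tektin1-1 and Sp-Tektin2 also passed with A and B alone. Sp-Dnah3_2, an axonemal dynein heavy chain, had 18.9, 22.6 and 15.9 CPM at 21 hpf, against 8.09, 5.28 and 6.34 CPM at 15 hpf. The change in Sp-Dnah3_2 was 1.56 ± 0.27 (SE, adjusted p 0.00184 by edgeR, with 1.66 and p 0.00715 from A and B alone) on the log2 scale.

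No gene of the cytoplasmic ribosome passed, although 79 of 81 tested members (84 in the list) had a positive log2 fold change and their median was 0.64 (edgeR, 0 called; 25 higher and 0 lower at an unadjusted p under 0.05; 3 called by DESeq2 and 1 by limma-voom, all higher). The median was 1.24 in pair A, 0.21 in pair B and 0.48 in pair C, and 0.71 with A and B alone, where 0 passed and 15 were higher at an unadjusted p under 0.05. The member with the smallest p was Sp-Rpl3, a large subunit protein, which had 1524, 2869.8 and 1534 CPM at 21 hpf, against 506, 1996 and 921 CPM at 15 hpf. The change in Sp-Rpl3 was 0.94 ± 0.30 (SE, adjusted p 0.0515 by edgeR, with 1.04 and p 0.0957 from A and B alone) on the log2 scale. Subunits of oxidative phosphorylation held 2 higher and 0 lower of 54 (edgeR; 0 lower at an unadjusted p under 0.05, and 0 lower by DESeq2 and limma-voom), with 8 higher in A and B alone and 0 in the fits without A or without B. The higher share was 3.7% with all replicates and 14.8% with A and B alone, against 7.35% and 6.91% of all tested models. The median of these subunits was 0.91 in pair A, -0.06 in B and -0.57 in C. Of these, Sp-Sdhc, a succinate dehydrogenase subunit, had 23.8, 36.9 and 7.9 CPM at 21 hpf, against 5.52, 16.7 and 8.88 CPM at 15 hpf. The change in Sp-Sdhc was 1.15 ± 0.37 (SE, adjusted p 0.0475 by edgeR, with 1.64 and p 0.0035 from A and B alone) on the log2 scale. Among 32 proteasome subunits, both models of the activator Sp-Psme3 were lower (6.25%, near the 5.91% of all tested models) and 0 were higher (edgeR). At an unadjusted p under 0.05 by edgeR 2 were higher, and DESeq2 and limma-voom called 0 higher. With A and B alone, without A or without B, 0 passed.

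The control mean at 18 hpf lay between those of 21 and 15 hpf in 1310 of the 1372 higher models (95.5%) and in 1082 of the 1103 lower models (98.1%). These models were chosen for a difference between 21 and 15 hpf, and over all tested models the shares were 53.8% of those with a higher and 53.6% of those with a lower mean at 21 hpf. The median log2 difference of the higher models was 0.79 from 15 to 18 hpf and 0.53 from 18 to 21 hpf, and that of the lower models was -0.41 and -0.46. All of these differences share the 18 hpf libraries. Whether the second interval differed from the first was tested directly, and 0 models passed (0%, edgeR; 579 at an unadjusted p under 0.05; 0 by DESeq2 and limma-voom). With A and B alone 1 passed (0.00538%), the homeobox gene Sp-Pitx1_1 (L_var_25830, chromosome 18, 3094595 to 3095071), which had 0, 0 and 0.282 CPM at 15 hpf, 15.3, 16.3 and 4.96 CPM at 18 hpf and 24.8, 34.4 and 2.22 CPM at 21 hpf. It had already left the floor at 18 hpf, and between 15 and 21 hpf it was at least 46.6-fold higher (edgeR adjusted p 0.00284, and 1.93e-05 with A and B alone). Without the 21 hpf libraries of replicate C, muscle actin (Sp-Msclact) was the model that passed, with a second interval larger by 3.37 on the log2 scale (SE 0.47, edgeR adjusted p 0.0292).

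Whether these changes differed from those of ethanol embryos was tested as the difference between both 6 h changes, with ethanol minus control. With all replicates 6 models passed (0.0321%), 5 with a higher change in ethanol embryos (0.0268%) and 1 with a lower one (0.00536%). With A and B alone 16 passed (0.0861%), 2 higher (0.0108%) and 14 lower (0.0753%). Without replicate A and without replicate B 0 passed (edgeR, 1901 and 1427 at an unadjusted p under 0.05), and without the 21 hpf libraries of replicate C 87 did. DESeq2 called 59 and limma-voom 4. Sp-Sfrp1/5, a secreted Wnt antagonist, had 264, 116 and 262 CPM at 21 hpf and 34.9, 40.2 and 33.0 CPM at 15 hpf in ethanol embryos, against 224, 269 and 169 CPM at 21 hpf and 228, 279 and 191 CPM at 15 hpf in control embryos. The difference was 2.64 (edgeR adjusted p 0.0370, and 2.34 with p 0.111 for A and B alone). In Sp-FoxY and Sp-Dr_1 the 21 hpf library was above the 15 hpf library in the 3 ethanol pairs, while the control pairs did not move one way (log2 differences of 0.48, -0.74 and 0.40 in Sp-FoxY and 1.32, 0.00 and -0.64 in Sp-Dr_1). The differences between the changes were 2.76 and 3.33 (edgeR adjusted p 0.0370 for both, and 0.0584 and 0.129 for A and B alone). The gene with the smaller change was Sp-Clect_106, a C-type lectin, at -2.81 (edgeR adjusted p 0.0370, and -3.0 with p 0.0426 for A and B alone).

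The control rises of muscle actin and Sp-Rej9 were larger than those of ethanol embryos in the test of A and B alone. Muscle actin (Sp-Msclact) had 6.71, 13.3 and 136 CPM at 21 hpf and 3.89, 7.91 and 10 CPM at 15 hpf in ethanol embryos, against 239.9, 294 and 31.8 CPM at 21 hpf and 5.4, 11.4 and 9.02 CPM at 15 hpf in control embryos. The difference was -4.29 (edgeR adjusted p 0.00116) with A and B alone and -2.14 (edgeR adjusted p 0.689) with all replicates. At 21 hpf the ethanol library of replicate C had the highest ethanol value and the control library of replicate C the lowest control value. Sp-Rej9 had 15.9, 29.3 and 181 CPM at 21 hpf and 4.56, 4.81 and 3.57 CPM at 15 hpf in ethanol embryos, against 155, 161 and 16.5 CPM at 21 hpf and 3.73, 4.6 and 2.4 CPM at 15 hpf in control embryos. The same order of libraries held there, and the difference was -3.01 (edgeR adjusted p 0.0232) with A and B alone and -1.01 (edgeR adjusted p 0.801) with all replicates.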

How the data were processed

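Whole-embryo RNA-seq libraries were analysed from deposited gene counts (whole-number counts per gene model, not normalized). Per the submitters' processing notes, the authors used fastp, STAR and featureCounts, and versions, genome build and strand setting are not given in the sources used here. Gene names and coordinates were taken from the deposited annotation, whose percent identity to the best hit, given by the authors without a method, was used for no result. Replicate letters A, B and C are the labels' biological replicates 1, 2 and 3. Only the control libraries of 21 and 15 hpf are compared, but the fits used all 18 libraries (7133636 to 8000894 counts) to estimate the spread.

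Models were filtered with filterByExpr (minimum count 10, minimum total 15) and fitted with edgeR 4.0.16 in R 4.3.3 (TMM scaling, quasi-likelihood, 6 group means, replicate letter as a block), with Benjamini-Hochberg adjustment over all tested models and a threshold of 0.05. The A and B fit used 12 libraries. CPM were TMM-scaled, and the log2 CPM behind the pair differences used a prior count of 2. The fitted log2 fold changes came from edgeR with its default prior count. The letters were used as a block because the comparison was defined as paired by letter. Same-lettered libraries deviated together from their group means in all 3 letters, with correlations of 0.223, 0.611 and 0.388, against -0.45 to 0.152 between letters. Deviations within a group cancel out, so the values between letters are not an independent reference. Chi-square tests found no pair of libraries within a group that differed only by sampling noise. Folds written "at least" use a floor of 3 counts per library, which covers counting error only.

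Named genes are the 12 largest changes each way that passed, had a mean level of 2 or more in log2 CPM and had the same sign in the 3 pairs, the 5 largest each way with A and B alone, up to 6 members of each of 17 lists with the smallest p, members that define a list, and up to 5 genes from each fit of the ethanol difference. The values of 1 such gene are not reported here. The comparison, the named genes and the lists were chosen with earlier results of these data known. Shares of a list cover its tested members. A model passes the filter if it is counted in enough libraries of the fit, which may be of any time or treatment. In tests on simulated counts of the 18674 models, 100 were changed 2-fold and 100 were changed 4-fold, alike in all control libraries of 21 hpf. The fit recovered 25% of the 2-fold and 81% of the 4-fold changes with 3 false calls. A library that stands apart, as replicate C does, was not simulated. Far fewer models were changed than were called in the data, so recovery in the data may differ. Alternatives were DESeq2 1.42.0, limma-voom (limma 3.58.1), RLE scaling, no filter, no block, each replicate left out, the 21 hpf libraries of replicate C left out, and only the 6 libraries compared.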

Additional observations from a re-analysis of the deposited data

Results flagged for a closer look

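The difference between the ethanol and the control change from 15 to 21 hpf passed the test in the following genes, on the log2 scale and with ethanol minus control. With all replicates it was 3.05 for Sp-St8sia3_1, a sialyltransferase, 2.76 for Sp-FoxY, a forkhead gene, 3.33 for Sp-Dr_1, named after the ectoderm factor dead ringer, 2.64 for Sp-Sfrp1/5, 1.96 for Sp-Hypp_2644 and -2.81 for the lectin gene Sp-Clect_106 (edgeR adjusted p 0.0370 in each). With replicates A and B alone it was -3.0 for Sp-Clect_106, -5.59 for Sp-Igcam/Igcam, -3.61 for an unnamed model (L_var_10532), -3.01 for Sp-Rej9, -4.29 for Sp-Msclact and -3.0 for Sp-SatL2. With all replicates the last 5 had differences between -2.68 and -0.56 and did not pass. In the genes with a positive difference, ethanol embryos were lower than control embryos in every library at 15 hpf. At 15 hpf Sp-Sfrp1/5 had 34.9, 40.2 and 33.0 CPM in ethanol embryos, against 228, 279 and 191 CPM in control embryos.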

How the results depend on the processing

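The counts of models between 21 and 15 hpf depended on the block and on the libraries used. Without the replicate block 725 passed, 446 higher and 279 lower, and 49 of the 106 named genes that passed with the block did not pass there. With only the 6 libraries compared 846 passed (663 higher, 183 lower). Leaving out 1 replicate gave 394 to 2153 called, 272 to 1284 higher and 122 to 869 lower. The smallest counts came without replicate B and the next without replicate A. Without the 21 hpf libraries of replicate C 3517 passed (1939 higher, 1578 lower). DESeq2, limma-voom, RLE scaling and no filter kept the total, and the counts higher and lower, within 1.5 times. For the difference from ethanol the count was 0 without the block, 59 with DESeq2, 11 with no filter, 0 to 16 with 1 replicate left out and 87 without the 21 hpf libraries of replicate C. For the later against the earlier interval it was 0 to 1 with 1 replicate left out and 1 without the 21 hpf libraries of replicate C. Of the named genes that passed, none changed sign in any of the 10 alternatives, and 76 did not pass without replicate B, 68 without A and 17 without C. Among the named genes that had not passed, Sp-FoxY (log2 fold change 0.06) turned to -0.05 without the block and -0.09 without the 21 hpf libraries of replicate C, and ranged between -0.14 and 0.43 with 1 replicate left out. With 1 replicate left out, Sp-An ranged between -3.46 and 0.07, Sp-Dr_1 between -0.26 and 0.74, Sp-He1 between -3.46 and 0.35 and Sp-Sfrp1/5 between -0.11 and -0.03, and the last turned to 0.03 without the 21 hpf libraries of replicate C. Of 340 counts of list members under alternatives, 140 moved by over 1.5 times, and the cause was not tested. Models that did not pass may still have changed.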

Other observations

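Gene families as the deposited annotation names them were looked at after the values had been seen, for families with at least 15 tested models. Of all tested models 7.35% were higher and 5.91% lower, and with A and B alone 6.91% and 4.67%. The family annotated as solute carriers, transporters of amino acids and transmitters of the Slc6 type, held 10 higher and 0 lower of 21 tested models (47.6%, median log2 fold change 1.24), and 8 higher and 1 lower with A and B alone. Sp-Gat, named after transporters of the inhibitory transmitter GABA (L_var_07576, chromosome 3, 67172103 to 67196031), had 12.3, 13.7 and 9.26 CPM at 21 hpf, against 5.4, 3.41 and 1.83 CPM at 15 hpf. The change in Sp-Gat was 1.92 ± 0.35 (SE, adjusted p 0.00243 by edgeR, with 1.69 and p 0.0162 from A and B alone) on the log2 scale. Its neighbour Sp-Gat_2 had 128, 107 and 38.6 CPM at 21 hpf, against 32.4, 43.8 and 21.3 CPM at 15 hpf. The change in Sp-Gat_2 was 1.47 ± 0.41 (SE, adjusted p 0.0267 by edgeR, with 1.66 and p 0.000598 from A and B alone) on the log2 scale. Both genes were higher at 21 hpf in the 3 pairs, and replicate C was the lowest of the 21 hpf libraries. Sp-Slc6a2_1, a monoamine transporter name with 2 gene models, rose with log2 fold changes of 2.67 and 2.49 (edgeR adjusted p 0.00609 and 0.00649). Sp-Glyt_1 is a glycine transporter name, but the best protein hit of this model is a serotonin transporter. It had close replicates, 85.9, 79.7 and 71.5 CPM at 21 hpf, against 45.2, 45.7 and 36.8 CPM at 15 hpf. The change in Sp-Glyt_1 was 0.89 ± 0.23 (SE, adjusted p 0.0172 by edgeR, with 0.87 and p 0.0242 from A and B alone) on the log2 scale.

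Tubulins, the subunits of microtubules, held 9 higher and 0 lower of 33 tested models (27.3%). Of all tested models 7.35% were higher and 5.91% lower. With A and B alone 8 tubulin models were higher and 0 lower. Another 7 tested models stand under a second family name in the annotation, and there 0 passed (edgeR; 0 at an unadjusted p under 0.05, 0 by DESeq2 and limma-voom). Of these, 3 models named after alpha tubulins were lower with A and B alone. One of them, Sp-Tuba3 (L_var_08050), had 15.7, 12.8 and 110.6 CPM at 21 hpf, against 99.2, 81.9 and 113 CPM at 15 hpf, with replicate C nearly level between the times (log2 fold change -2.65 and adjusted p 0.0032 with A and B alone, -1.18 and 0.244 with all replicates, edgeR). Of the 9 that were higher, 6 were beta tubulin models in one cluster or close to it on chromosome 14, where reads may be divided between near-identical copies. Sp-Btub3 on chromosome 5 (L_var_11264) had 112, 145 and 65.7 CPM at 21 hpf, against 17.3, 36.6 and 6.34 CPM at 15 hpf. The change in Sp-Btub3 was 2.60 ± 0.42 (SE, adjusted p 0.00109 by edgeR, with 2.31 and p 0.00018 from A and B alone) on the log2 scale. Its groups did not overlap. Among RNA-binding proteins of the RRM superfamily the direction was the opposite, with 6 of 23 lower (26.1%) and 0 higher, and 2 lower with A and B alone. Sp-Hypp_212, whose best protein hit is a myelin expression factor, had 437, 479.6 and 313 CPM at 21 hpf, against 966, 1165 and 1118 CPM at 15 hpf. The change in Sp-Hypp_212 was -1.40 ± 0.24 (SE, adjusted p 0.00148 by edgeR, with -1.20 and p 0.0119 from A and B alone) on the log2 scale. Homeobox genes of the PRD class held 7 higher and 1 lower of 24 (29.2% and 4.17%), and 9 and 3 with A and B alone, among them both models of Sp-PaxC, a Pax2/5/8-like name by its best hits, of which L_var_03912 had 18.5, 25 and 2.59 CPM at 21 hpf, against 1.8, 3.75 and 1.97 CPM at 15 hpf. The change in Sp-PaxC was 2.55 ± 0.68 (SE, adjusted p 0.0209 by edgeR, with 3.05 and p 0.000967 from A and B alone) on the log2 scale. In that gene replicate C stayed below replicate B of 15 hpf. Tetraspanins, membrane proteins with several spans, held 8 higher and 5 lower of 32 (25% and 15.6%), with 7 and 6 with A and B alone. For 2 of the 8, both named Sp-Ttrspn_18, the best protein hit is a vesicular glutamate transporter and not a tetraspanin.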
